A study of Mus musculus with 21 samples.

Results

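The genes described are the cytosolic ribosomal protein genes of the mouse epididymal fat pad, a visceral white adipose tissue that lies beside the epididymis. They were chosen by name: every symbol of the form Rpl or Rps followed by a number, with an optional letter a, l, x or y, together with Rpsa, Rplp0, Rplp1 and Rplp2. Models ending in -ps and the Rps6k kinases were left out. The rule found 85 of the 38087 genes in the deposited exon count table, and 81 of them passed the filter on low counts. By name and known role, 43 of the tested members encode proteins of the large subunit, 31 of the small subunit and 3 the P stalk. The other 4 are the paralogs Rpl7l1, Rpl22l1 and Rps27l, and Rps4y2. The 4 that did not pass were Rpl3l, Rpl10l, Rpl39l and Rps12l1. By identifier, GENCODE M21 held all 85 and typed 83 as protein coding, and 82 carried the same name there. Rps4y2 (Rps4l in GENCODE) and Rps12l1 were typed as processed pseudogenes, and Rps3a is named Rps3a1. The row labelled Rpl24 has the identifier and, at 6029 bases, the length of another gene, Zbtb11, a neighbour on the same chromosome, so which of the 2 genes its counts measure cannot be told from the table. It was kept under the naming rule, and its values are uncertain.

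The tissue came from male C57BL/6j mice aged 15 to 16 weeks with free access to food. The conventional arm carried a gut microbiota and gave 12 libraries, 2 at each of 6 times. The germ-free arm was kept without microbes and gave 9 libraries, with 1 at each of ZT02, ZT14 and ZT18 and 2 at each other time (ZT, zeitgeber time, is hours after lights on). Total RNA was sequenced, and the comparison of interest was the daily profile with and without a microbiota. Nothing in the labels ties a library to its own mouse, and p-values therefore reflect only the variation among the libraries, which may be technical.

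The cytosolic ribosome is built from a large and a small subunit, and its proteins are made in matched amounts from many scattered genes. Their mRNAs classically start at a C followed by a run of pyrimidines, the 5′ terminal oligopyrimidine (TOP) tract, through which mTORC1 and Larp1 control their translation when nutrients and insulin change. Many of the genes also carry small nucleolar RNAs in their introns. GENCODE M21 tags 32 of the 85 genes (37.6%) as hosts of a non-coding RNA, compared with 7.30% of all tested genes that were matched.

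The annotated starts of a few members are shown because the TOP tract is the element the class is known for. Members with a pyrimidine run near the start lay at both ends of the arm comparison. Each line runs 5′ to 3′ from 20 bases before a RefSeq start to 10 bases after it (build GRCm38.p6), and capitals mark the longest run that opens with C and goes on with at least 4 bases that are C or T. Rpl14, Rpl7a and Rps25 were among the members with the highest fold changes, and Rpl15, Rpl27a and Rplp2 among the lowest. The run marked for Rps25 ends before the annotated start, so by this annotation it lies outside the mRNA. Rps19 was also among the highest, and its window held no such run. Positions are chr9:120571497-120571526 (plus strand) for Rpl14, chr2:26910787-26910816 (plus) for Rpl7a, chr9:44407694-44407723 (plus) for Rps25, chr14:18270977-18271006 (minus) for Rpl15, chr7:109519175-109519204 (plus) for Rpl27a, chr7:141447631-141447660 (plus) for Rplp2 and chr7:24884572-24884601 (plus) for Rps19.
Rpl14: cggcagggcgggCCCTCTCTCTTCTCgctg
Rpl7a: ccacaattCCCTCTTCTTTCTTTCTCCagc
Rps25: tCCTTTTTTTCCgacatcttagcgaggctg
Rpl15: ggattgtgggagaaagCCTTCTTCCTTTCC
Rpl27a: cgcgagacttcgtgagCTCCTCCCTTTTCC
Rplp2: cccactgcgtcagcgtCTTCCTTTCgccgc
Rps19: agcactccgaaatctcgcgagactcgacgc

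A RefSeq start was found for 63 of the 85 members, 57 of them tested genes of the subunits and the P stalk. Such a run, searched on the gene's own strand only, was present in 39 of those 57 genes (68.4%) and in 41.5% of the 27025 genes with a start. The share of all starts with a run was 37.6%. A run was counted anywhere in the window, also where it lay wholly before the start. The annotated start is not a measured one, and a window without a run says nothing more about the mRNA. Between the arms, the 39 genes with a run had a median log2 fold change of 0.10 and 15 of them were called higher in germ-free mice. The 18 without a run had a median of 0.12, with 10 called.

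Counts of the members made up 1.15% to 1.70% of each library. Library totals ranged from 24388294 to 48348181 counts, and the members' counts from 281454 to 723732. The tested member with the lowest counts, Rps4y2, had at least 304 in every library. Adipocyte markers were abundant in every library, with a summed level of 12714 to 19729 CPM (counts scaled to a common library size with TMM factors) in the conventional arm and 14333 to 22781 CPM in the germ-free arm.

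Between genes, levels were compared as CPM per kilobase of deposited exon length. Rplp1, an acidic protein of the P stalk that recruits elongation factors, was highest, at 677 ± 42 CPM per kb in the conventional arm and 705 ± 50 in the germ-free arm (SD, n = 12 and 9). Rps27 followed at 652 ± 67 and 723 ± 72, with SDs that overlap those of Rplp1. Rps12 stood at 337 ± 23 and 351 ± 22 CPM per kb, Rps24 at 315 ± 23 and 340 ± 17, and Rps15 at 316 ± 21 and 336 ± 25. These last 3 did not differ from each other beyond their spread. The lowest tested members were Rpl7l1 (20.9 ± 2.5 and 23.0 ± 4.4 CPM per kb), Rps15a (19.0 ± 1.9 and 21.2 ± 1.9) and Rps4y2 (14.7 ± 2.1 and 13.1 ± 1.6). The deposited length joins the exons of all transcripts of a gene, and it places Rps15a low: its deposited length is 6262 bases. Per kb of the longest principal GENCODE transcript, Rplp1 and Rps27 kept ranks 1 and 2, Rps12 and Rps15 ranks 4 and 5, and Rps24 moved from rank 4 to rank 42.

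**Figure D1:**
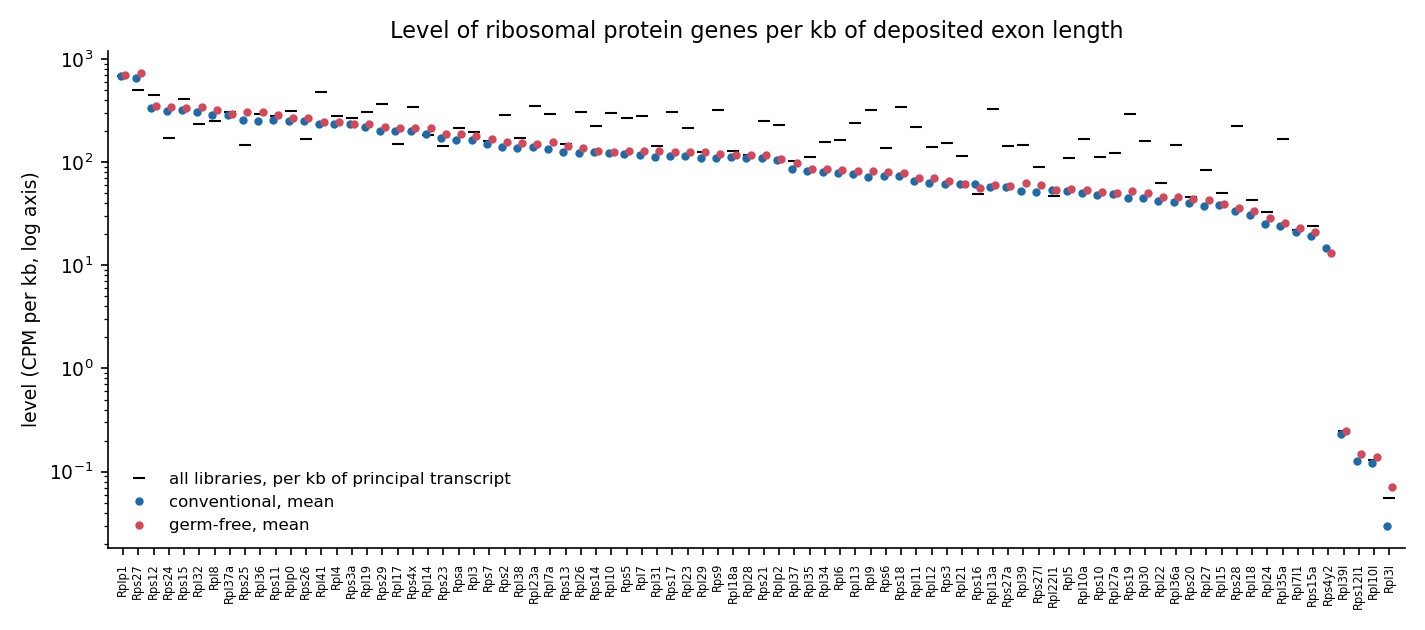
Mean level of the genes, each drawn as a pair of points, in the conventional (blue) and germ-free (red) libraries, in CPM per kb of deposited exon length on a log axis; black dashes give the mean over all libraries per kb of principal transcript. The tested genes lie above 10 CPM per kb and the 4 untested genes below 1.

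The 4 untested members were at the edge of detection. Rpl3l, the striated muscle form of Rpl3, reached at most 0.113 CPM in the conventional and 0.528 CPM in the germ-free arm, Rpl39l at most 0.837 and 0.686, and Rps12l1 at most 0.109 and 0.286. Rpl10l, the form that stands in for the X-linked Rpl10 in male germ cells, had 1 to 20 counts in 7 libraries and 0 in the other 14. Those 7 libraries had a summed level of spermatid markers (Prm1, Prm2, Tnp1, Tnp2, Odf1 and Smcp) of 12.2 to 140 CPM, and the other 14 of 0 to 2.66 CPM. The 7 were from both arms, and the part of germ cell RNA in the Rpl10l counts was not tested.

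Across the day, ribosomal protein mRNAs were slightly higher in the germ-free arm, by a median of 1.08-fold (log2 fold change 0.11, range -0.19 to 0.26). In edgeR's quasi-likelihood test over the 18334 genes tested, with time as a factor and Benjamini-Hochberg adjustment, 36 of the 81 members rose, 0 fell and 45 were not called. DESeq2 also called 0 lower, and 1 member (Rps4y2) had an unadjusted p under 0.05 in that direction in edgeR. Of all genes tested, 15.3% were higher and 11.6% lower, with a median log2 fold change of 0.03. The direction was shared: 78 of 81 members had a positive fold change, beside 10053 of the 18334 genes tested. For 49 members 8 or 9 of the 9 germ-free libraries lay above the conventional median. The arms overlapped for all 81 members. For these last counts the share over all genes is not given here. The members share their libraries, so none of these is a count of independent genes. In bulk tissue, a different share of a cell type and a different amount of RNA per cell cannot be told apart.

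The shift of other genes depended on their length. The longest principal transcript had a median length of 886 bases in the members, and 40 of 80 members with one lay between 500 and 1000 bases. In that class the members' median log2 fold change was 0.10, with 18 of 40 called higher, and that of the 764 other genes was 0.12, with 29.3% called higher. Between 1000 and 1500 bases it was 0.11 for 17 members and 0.11 for 1386 other genes. From 1500 to 2000 bases it was 0.075 for 6 members and 0.074 for 1704 other genes. In the other classes the medians lay further apart. Under 500 bases they were 0.13 for 10 members, beside -0.04 for 128 other genes. From 2000 to 3000 bases they were 0.12 for 4 members, beside 0.05 for the other genes. By deposited exon length, 9 members from 3000 to 5000 bases had a median of 0.12, beside 0.03. From 500 bases of principal transcript upward, the median of the other genes was lower in longer classes, down to -0.09 above 5000 bases. By deposited exon length it was -0.05 above 5000 bases. With offsets that remove each library's trend on principal transcript length, 9 of 81 members were higher, beside 15.0% of all genes. With them 2 members were lower (Rps16 and Rps4y2), and the members' median became 0.02, beside 0.03 for all genes. With deposited exon length offsets instead, 14 members were higher, beside 15.2% of all genes, and 1, Rps4y2, was lower, with a median of 0.06. The row labelled Rpl24 is among the higher ones in both, with a length that is not that of Rpl24. Whether the length trend came from the tissue or from the RNA and libraries was not tested.

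**Figure D2:**
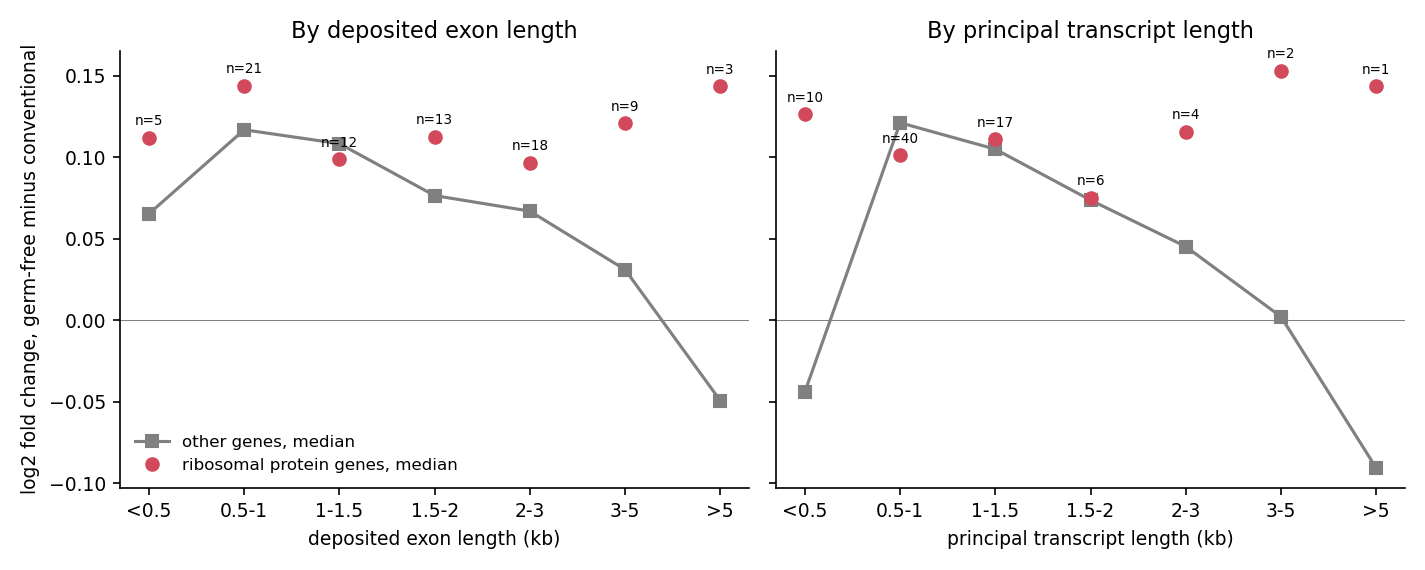
Median log2 fold change, germ-free minus conventional, of ribosomal protein genes (red, number beside each point) and of all other tested genes (grey) in classes of gene length, by deposited exon length (left) and by principal transcript length (right). From 500 to 2000 bases of principal transcript the red and grey medians lie within 0.02 of each other.

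Rpl14, Rpl36 and Rps19 were called higher with both length offsets and also in all fits that left out 1 library. The row labelled Rpl24 was too, but its length offsets rest on the length of Zbtb11. Rpl36, a large subunit protein, had the highest fold change of the members. Its lowest, median and highest level was 78.0, 101 and 122 CPM in the conventional arm and 104, 122 and 137 CPM in the germ-free arm. All 9 germ-free libraries lay above the conventional median, although the arms overlapped. The log2 fold change was 0.26 ± 0.06 (SE; edgeR adjusted p = 0.00552), and 0.17 with the principal transcript offsets (adjusted p = 0.0494).

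Rps19, the small subunit protein most often mutated in Diamond-Blackfan anaemia, had 180, 202 and 244 CPM (lowest, median, highest) in the conventional arm and 215, 254 and 272 CPM in the germ-free arm. Every germ-free library was above the conventional median, and 4 of them (ZT02, ZT14, and replicate 2 at ZT06 and at ZT10) lay below the highest conventional one. Its log2 fold change was 0.24 ± 0.05 (edgeR adjusted p = 0.00233). Rpl14, whose start is shown above, had 154, 175 and 191 CPM and 178, 195 and 216 CPM, a log2 fold change of 0.19 ± 0.04 (edgeR adjusted p = 0.00354). The row labelled Rpl24 had 130, 153 and 167 CPM and 153, 172 and 195 CPM, a log2 fold change of 0.19 ± 0.04 (edgeR adjusted p = 0.00577).

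Among large subunit genes, 20 of 43 rose and all 43 had a positive fold change, at a log2 median of 0.11. Beside Rpl36 and Rpl14, the members with the highest fold changes were Rpl39, at the exit tunnel (0.26 ± 0.07), Rpl7a (0.21 ± 0.05) and Rpl29 (0.20 ± 0.05). Rpl39 went from a median of 83.2 CPM to 98.3 CPM, with all 9 germ-free libraries above the conventional median. Rpl7a had 206, 251 and 275 CPM in the conventional arm and 250, 283 and 342 CPM in the germ-free arm. The lowest large subunit members were not called: Rpl21 at 0.01 ± 0.05, Rpl15 at 0.02 ± 0.05 and Rpl27a at 0.02 ± 0.04. Rpl27a had a median of 142 CPM in the conventional and 148 CPM in the germ-free arm. Rpl7a and Rpl15 thus carry runs of 19 and 14 bases at their RefSeq starts and lie far apart in fold change.

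Among small subunit genes, 14 of 31 rose and 29 were positive, with a median log2 fold change of 0.11. Beside Rps19, the highest were Rps25, which viral internal ribosome entry sites need (0.24 ± 0.05), and Rps13 (0.19 ± 0.05). Rps25 had 149, 176 and 200 CPM in the conventional arm and 181, 206 and 227 CPM in the germ-free arm, and 7 of the 9 germ-free libraries exceeded the highest conventional one. Rps16 was lowest at -0.13 ± 0.07 (edgeR adjusted p = 0.191), with medians of 55.8 and 52.1 CPM. Rps3a (-0.01 ± 0.04), Rps27a, which is made as a fusion with ubiquitin (0.01 ± 0.04), and Rps14 (0.03 ± 0.04) were also not called. For Rps3a the medians were 259 CPM in the conventional and 260 CPM in the germ-free arm.

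The 3 genes of the P stalk were not called by edgeR, while DESeq2 and the fit with cosine and sine in place of the time factor called Rplp0 higher. Rplp0, its scaffold, had a log2 fold change of 0.10 ± 0.04 (edgeR adjusted p = 0.0656), Rplp1 of 0.06 ± 0.05 and Rplp2 of 0.02 ± 0.04. Medians of Rplp0 were 423 CPM in the conventional and 452 CPM in the germ-free arm, those of Rplp1 331 and 343 CPM, and those of Rplp2 213 and 222 CPM. The arms overlapped for each.

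**Figure D3:**
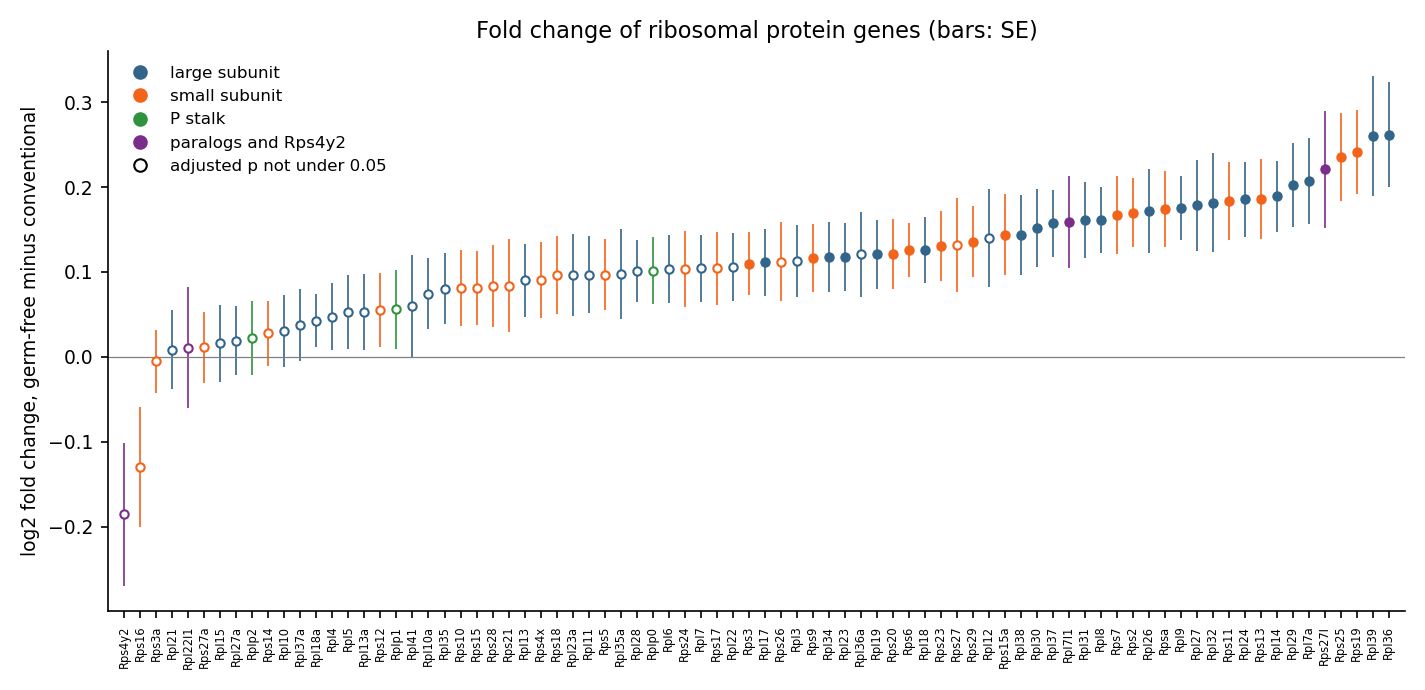
Log2 fold change, germ-free minus conventional, of tested ribosomal protein genes with their SE, ordered by size and coloured by class; filled points have an edgeR adjusted p under 0.05. The 36 filled points all lie above 0, and the lowest 2 points, Rps4y2 and Rps16, are open.

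Of the paralogs, Rps27l, a p53-induced form of Rps27, rose by 0.22 ± 0.07 (edgeR adjusted p = 0.0250), from a median of 40.9 to 49.5 CPM, and Rpl7l1, a nucleolar relative of Rpl7 that acts in ribosome assembly, rose by 0.16 ± 0.05 (adjusted p = 0.0385). Rpl22l1 had a log2 fold change of 0.01 ± 0.07, and Rps4y2 one of -0.19 ± 0.08 (adjusted p = 0.113). In raw counts, Rps27l stood at 25.3% ± 2.1 of Rps27 in the conventional and 26.7% ± 2.6 in the germ-free arm (SD), and Rpl22l1 at 21.04% ± 1.05 and 19.7% ± 1.9 of Rpl22. Rpl7l1 stood at 17.4% ± 2.2 and 17.5% ± 2.6 of Rpl7, and Rps4y2 at 4.28% ± 0.69 and 3.56% ± 0.39 of Rps4x. For each pair of genes, mean ± SD of the arms overlap. The percentages are not scaled by gene length, so they compare the arms and not the levels of the paired genes. The 219 models ending in -ps, copies of these genes, held counts equal to 1.60% to 2.37% of the members' counts, and of the 92 tested 8 were higher and 1 lower. How reads shared with such copies were assigned is not given in the sources used here, so the values of members with near-identical copies are uncertain.

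Libraries differed by moving the whole class up or down. For each member the deviation of its log2 CPM from its mean over the 21 libraries was taken, and the median over members ranged from -0.23 (conventional ZT18, replicate 1) to 0.19 (germ-free ZT22, replicate 1). The SD of these medians was 0.11, and the SD of the subunit and P stalk genes inside 1 library averaged 0.07. In conventional ZT14 replicate 1, 0 of the 81 members lay above their own mean, and in germ-free ZT22 replicate 1 and ZT18 replicate 2, 80 did. Germ-free ZT10 replicate 2 was low, with 1 member above its mean. The length trend of the other genes moved beside this in part. Its rank correlation was 0.15 in conventional ZT18 replicate 1 and in conventional ZT14 replicate 1, -0.20 in germ-free ZT18 replicate 2 and 0.10 in germ-free ZT10 replicate 2. Other libraries followed this less: germ-free ZT22 replicate 1, where the members were highest, had -0.06, and conventional ZT06 replicate 2, with a member median of 0.07, also had 0.07.

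**Figure D4:**
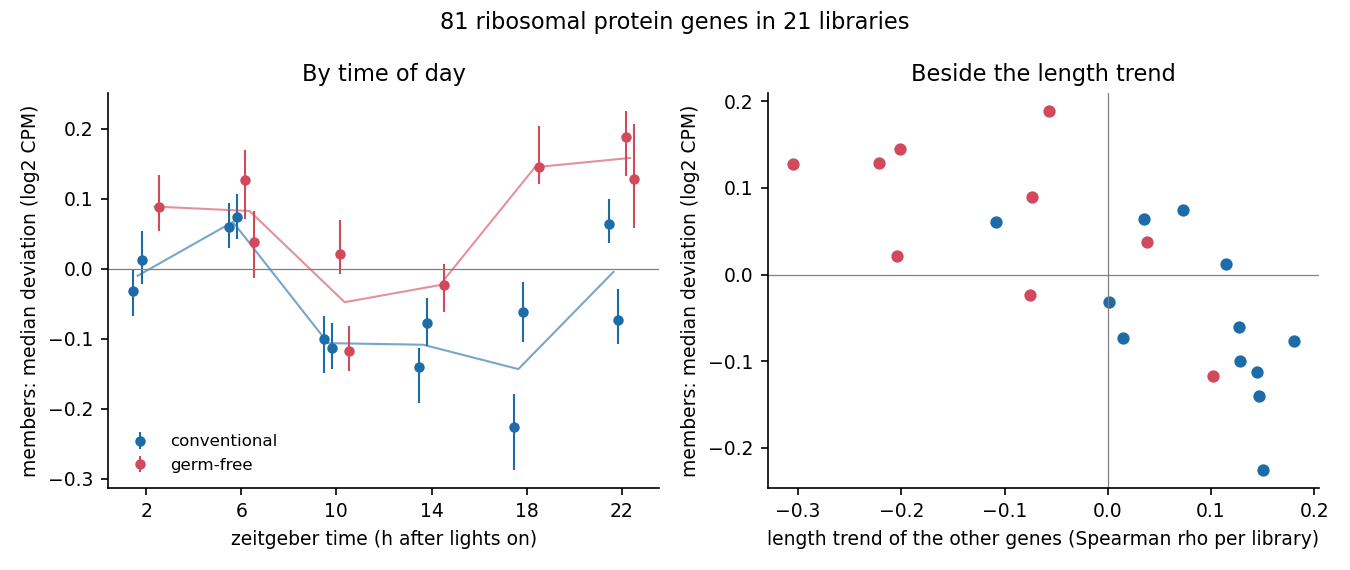
Left: median deviation of the 81 tested members from their own means (log2 CPM) in each library by zeitgeber time, with bars from the 25th to the 75th percentile of members and lines through the mean of each group; right: the same medians against each library's rank correlation of the other genes' deviations with exon length. Conventional libraries (blue) lie mostly low and to the right, germ-free libraries (red) mostly high and to the left, with overlap.

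By time of day, the members were higher in germ-free mice at night. At ZT18 and ZT22 together, 39 of 81 rose and 0 fell in edgeR. The median log2 fold change was 0.22, and 79 members were positive, beside 9544 of the 18334 genes tested. Of all genes tested, 9.16% were higher and 7.94% lower in that window, and their median was 0.02. The members' summed level at ZT18 was 12547 and 14019 CPM in the 2 conventional libraries and 16278 CPM in the germ-free one, and at ZT22 it was 15280 and 14038 CPM against 16457 and 16018 CPM. All 3 germ-free night libraries were thus above all 4 conventional ones in the sum. Of the 39 genes, 31 were also among the 36 called over the whole day. The largest night difference was that of Rpl36, at 0.41 ± 0.10 (edgeR adjusted p = 0.0179), next to Rpl7l1 at 0.40 ± 0.06 (adjusted p = 0.00472) and Rps27l at 0.40 ± 0.11 (adjusted p = 0.0262).

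The night count rested on few libraries. Without conventional ZT18 replicate 1, the lowest library, 4 members were called, beside 3.59% of all genes higher. Without conventional ZT22 replicate 2, 7 members were, beside 2.86%, and without germ-free ZT22 replicate 2, 14 were, beside 3.76%. The members' median log2 fold change was 0.17 to 0.26 over the 18 libraries that could be left out. The only germ-free library of ZT18 was not among them, since its removal empties that time. From ZT22 alone, a contrast added after seeing the data, edgeR called 1 member higher and 0 lower, beside 2.28% of all genes higher. There 20 members had an unadjusted p under 0.05, and their class had a median of 0.16. With exon length offsets 12 members were called at night, beside 8.62% of all genes higher, with a members' median of 0.15.

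At ZT02 and ZT06, 0 members were called in edgeR, with a median log2 fold change of 0.05, where 0.764% of all genes were higher. An unadjusted p under 0.05, in either direction, was found for 3 members (3.70%), beside 17.1% of all genes. At ZT02 the summed level was 14308 and 14756 CPM in the conventional libraries and 15656 CPM in the germ-free one, which was above both. At ZT06 it was 15221 and 15383 CPM in the conventional arm and 15905 and 14954 CPM in the germ-free arm, so the arms overlapped at that time. At ZT10 and ZT14, 0 members were called in edgeR, with a median of 0.08, where 4.57% of all genes were higher. Here 9 members (11.1%) had an unadjusted p under 0.05, beside 26.2% of all genes. The difference between times was itself not called: in the edgeR test of the arm-by-time interaction 0 members and 0% of all genes passed. In that test 1 member (Rpl7l1) had an unadjusted p under 0.05, beside 12.4% of all genes.

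**Figure D5:**
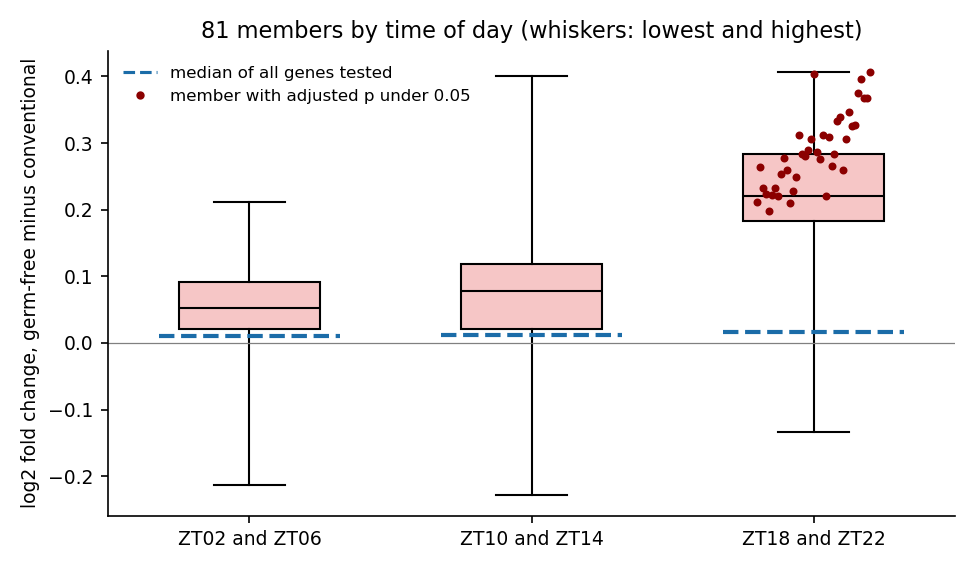
Log2 fold change, germ-free minus conventional, of the 81 tested members in 3 windows of the day; boxes span the quartiles, whiskers the lowest and highest member, dots are members with an edgeR adjusted p under 0.05, and dashed lines the median of all tested genes. The members' median is 0.05, 0.08 and 0.22 in the 3 windows, and the median of all genes is 0.02 in the last.

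In a fit of a 24 h cosine in each arm, 0 members were called rhythmic in the conventional arm by edgeR, beside 0.813% of all genes. However, 34 members (42.0%) had an unadjusted p under 0.05 in edgeR, beside 14.1% of all genes. DESeq2 called 1 member, among 781 genes. Rps15a had the smallest p (edgeR adjusted p = 0.109), with an amplitude of 0.16 on the log2 scale and a fitted peak at ZT 3.48, and Rpl31, Rps26 and Rps25 were among the next, with adjusted p-values of 0.181, 0.200 and 0.216. The fitted peaks of all 77 subunit and P stalk genes fell between ZT 0 and 6, with a circular mean of ZT 3.25 and a median amplitude of 0.09. These genes share their libraries, so the common phase is not a count of independent genes.

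In the germ-free arm, edgeR called Rpl7l1 and Rpl13 rhythmic, where 4.64% of all genes passed. DESeq2 called 11 of the 81 members, both of these included, and 2020 of the 18334 genes. In edgeR 31 members (38.3%) had an unadjusted p under 0.05, beside 22.8% of all genes. Rpl7l1 fitted an amplitude of 0.32 on the log2 scale and a peak at ZT 20.6 (edgeR adjusted p = 0.00424). Its germ-free level was 65.6 CPM at ZT02, 52.4 and 48.3 at ZT06, 50.0 and 46.8 at ZT10, 57.4 at ZT14, 75.7 at ZT18 and 66.2 and 76.5 at ZT22. The night libraries were the highest and those of ZT06 and ZT10 the lowest, without overlap between them. In the conventional arm the level of Rpl7l1 was 66.7 and 65.3 CPM at ZT02, 48.3 and 48.5 at ZT10, 55.9 and 60.7 at ZT18 and 52.5 and 53.3 at ZT22, with a fitted amplitude of 0.15 and a peak at ZT 23.0 (adjusted p = 0.272). The call of Rpl7l1 in the germ-free arm held without each of the 21 libraries in turn. Rpl13, with an amplitude of 0.16 and a peak at ZT 23.4 (adjusted p = 0.0469), lost its call in most such fits. Rpl18, Rps6 and Rps26 came next and were not called by edgeR (adjusted p = 0.0603, 0.0684 and 0.0764), while DESeq2 called all 3 among its 11 members.

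Of the 77 subunit and P stalk genes, 70 had a fitted germ-free peak between ZT 18 and 24, 6 between ZT 0 and 6 and 1 between them, with a circular mean of ZT 22.9. No difference of rhythm between the arms was called: in edgeR 0 members and 0% of all genes passed. An unadjusted p under 0.05 was found for 3 members (3.70%), beside 7.72% of all genes. These were Rpl7l1, Rps27l and Rpl19 (edgeR adjusted p = 0.607, 0.622 and 0.641).

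Among ribosomal protein genes that the naming rule misses, Fau, a fusion that yields a small subunit protein, rose by 0.14 ± 0.04 (edgeR adjusted p = 0.0262). Rpl36al (0.16 ± 0.06, adjusted p = 0.0508) and Gnb2l1, which encodes the scaffold Rack1 on the small subunit (0.09 ± 0.04, adjusted p = 0.107), were not called.

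Of 19 other mRNAs known to carry TOP tracts or to encode elongation and initiation factors, 6 rose and 2 fell. Beside them, 15.3% of all genes tested rose and 11.6% fell. The median log2 fold change of the 19 was 0.09. The initiation factor genes Eif3h (0.14 ± 0.03) and Eif3l (0.18 ± 0.05) and the nascent-chain factor Btf3 (0.14 ± 0.04) rose. Pabpc1, the poly(A)-binding protein, fell by 0.42 (SE 0.10, edgeR adjusted p = 0.00746), and the histone chaperone Nap1l1 fell by 0.34 (SE 0.08, adjusted p = 0.00538). Pabpc1 went from 278 ± 43 to 207 ± 50 CPM. Eif3k and Eif3f were not called.

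Of 23 ribosome biogenesis factors, 3 rose (13.0%, beside 15.3% of all genes) and none fell (median 0.08). Dkc1, the pseudouridine synthase of small nucleolar particles, rose by 0.30 ± 0.06 (edgeR adjusted p = 0.00159), the small subunit export factor Ltv1 by 0.27 ± 0.07 and the large subunit factor Wdr12 by 0.12 ± 0.04. Bop1 (0.17 ± 0.06) and Nhp2 (0.22 ± 0.09) were not called. Of the 3 host genes of small nucleolar RNAs tested, Snhg3 (0.18 ± 0.06) and Snhg12 (0.17 ± 0.05) rose, and Gas5, itself a TOP-type transcript, was not called (-0.06 ± 0.04).

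Of 19 genes of mTORC1 and cap-dependent control, none rose and 4 fell, beside 15.3% and 11.6% of all genes tested. Their median log2 fold change was -0.05. Their median deposited exon length was 4097 bases, beside 3324 over all genes tested, and the part of length in these changes was not tested. Deptor, an inhibitor bound to mTOR, fell by 0.58 (SE 0.06, edgeR adjusted p = 4.31e-05), from 153 ± 19 to 102 ± 10 CPM. Rptor, the substrate-binding subunit of mTORC1, fell by 0.36 (SE 0.07), and Eif4ebp2, a repressor of cap-dependent translation, by 0.35 (SE 0.11). Mlst8 (0.10 ± 0.04) and Akt1s1 (0.10 ± 0.05) were not called.

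The mitochondrial ribosome and the proteasome had higher median log2 fold changes than the cytosolic members, whose median was 0.11. Of 76 mitochondrial ribosomal protein genes, whose products translate the mitochondrial genome, 62 rose (81.6%, beside 15.3% of all genes) and none fell. Their median log2 fold change was 0.24. Mrpl43 rose by 0.33 ± 0.04, Mrpl34 by 0.39 ± 0.06 and Mrps24 by 0.27 ± 0.04. Of 38 proteasome subunit genes, 29 rose (76.3%) and none fell (median 0.20). Among those that rose were Psmd5 at 0.33 ± 0.07 and Psmd4 at 0.29 ± 0.07. The difference in fold change between these groups and the cytosolic members was not tested.

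Markers of other cells are given beside these shifts, as summed levels. Fibroblast markers were at 3103 to 5167 CPM in the conventional and 3129 to 4637 CPM in the germ-free arm, with 2 of 7 lower. Macrophage markers were at 749 to 1207 and 732 to 1389 CPM (1 of 6 tested lower), and lymphocyte markers at 192 to 717 and 91.3 to 762 CPM (0 of 7 called in edgeR). Skeletal muscle markers were at 10.6 to 47.4 CPM in the conventional and 3.48 to 20.5 CPM in the germ-free arm (1 of 3 tested lower). Epididymis markers reached 37.4 CPM in the conventional and 399 CPM in the germ-free arm, ciliated duct markers 64.1 and 169 CPM, and liver markers 599 and 447 CPM. The 2 highest epididymis levels were those of germ-free ZT22, at 174 CPM in replicate 1 and 399 CPM in replicate 2. Replicate 1, where the members were highest, also had the 169 CPM of ciliated duct markers. The germ-free ZT18 library had 2.70 CPM of epididymis and 2.42 CPM of ciliated duct markers. Without the 5 libraries highest in ciliated duct markers 21 members were called higher, and without the 2 highest in liver markers 23. Without the 4 highest in male tract markers 10 were. The medians of the log2 fold changes were 0.11, 0.11 and 0.10, and 8.58% to 13.7% of all genes were higher. Each set also took every library of an arm at some time: conventional ZT02, germ-free ZT14 and germ-free ZT22, in that order. The loss of those times was not tested apart from the loss of the marker RNA. The part of these cells in the members' levels was otherwise not tested.

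The whole-day count also moved with single libraries. Leaving out germ-free ZT18 replicate 2, the only germ-free library at that time, left 10 members called and a median of 0.07, with 8.59% of all genes higher. The members called were 16 without germ-free ZT10 replicate 1, 19 without germ-free ZT06 replicate 1 and 20 without germ-free ZT14 replicate 2. They were 21 without conventional ZT18 replicate 1 or conventional ZT22 replicate 2. In those fits 9.85% to 12.2% of all genes were higher. Of the 36 members, 10 were called in each of the 21 fits with a library left out: Rpl7a, Rpl8, Rpl9, Rpl14, the row labelled Rpl24, Rpl29, Rpl36, Rps2, Rps19 and Rps25. With ZT06, ZT10 and ZT22 alone, or with only the libraries numbered 2, edgeR called 0 members higher, beside 2.96% and 2.45% of all genes. In each, 11 members had an unadjusted p under 0.05, beside 5144 of 18205 and 4819 of 18165 genes. The log2 fold change of Rpl36 was then 0.17 and 0.24 (edgeR adjusted p = 0.133 and 0.101).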

How the data were processed

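RNA of epididymal fat was sequenced as stranded, ribosomal-RNA-depleted paired-end libraries, per the labels' protocols. The authors deposited 1 table of raw exon counts, 38087 genes by 21 libraries, beside a length per gene, and the counts were used unchanged. The submitters' processing notes name STAR 2.4.0i and mm10. How reads were counted (program, strand, reads with several hits, annotation) is not given in the sources used here. Genes kept by filterByExpr (18334) were scaled by TMM and tested in R 4.3.3 with edgeR 4.0.16 (quasi-likelihood F test, Benjamini-Hochberg over all genes, threshold 0.05): arm with a 6-level time factor, windows and interaction from arm-by-time cells, and cosine and sine terms of period 24 h per arm. Levels are TMM-scaled CPM. A SE is the log2 fold change divided by the root of F. DESeq2 1.42.0 was an alternative. The procedure was tested on simulated data.

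Library totals of 24388294 to 48348181 counts set the precision. Positions, gene types and principal transcripts came from GENCODE M21, start sequences from RefSeq (GRCm38.p6). Length offsets are a lowess trend (span 0.3) per library fitted on genes that are not members. The 8 highest and 8 lowest fold changes, the P stalk, the paralogs, extremes per kb, the smallest rhythm and interaction p-values and up to 5 genes per other list are named. The row labelled Rpl24 and genes outside this rule that stand only in a count were chosen after their values were seen. The members and lists were chosen with earlier results of these data known. Adgre1, Spink1, Dnah5, Dnah9 and Cfap126 of the marker lists were not analysed here. No set test was run. Values of single genes that the rule names but the text and plots leave out are not reported here.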

Additional observations from a re-analysis of the deposited data

Results flagged for a closer look

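Among the 9 germ-free libraries, 82 measures were examined: the level of each tested member and their sum. In 1 of them a single library stood apart from the rest: Rpl36a, a large subunit protein gene, was at 89.9 CPM in germ-free ZT22 replicate 1, the next library was at 78.3 CPM and the median of the 9 was 75.4 CPM. The gap took 0.496 of the range, where the critical value for 9 libraries is 0.493. Chance alone marks about 1 in 20 such groups. Rpl36a was not called between the arms.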

How the results depend on the processing

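The members' median log2 fold change was positive in all 36 alternatives of the whole-day comparison, while the number called moved. Of the members, 21 were higher with upper-quartile scaling, 23 with no filter on low counts (where more genes were tested), 14 with exon length offsets, 9 with principal transcript length offsets (median 0.0209), and 21, 23 and 10 when the libraries with the most ciliated duct, liver or male tract marker RNA were left out. With 4 libraries per time at ZT06, ZT10 and ZT22 only, edgeR called 0 higher and 1 lower (11 members had an unadjusted p under 0.05), and with the libraries numbered 2 only it called 0 higher (11 under 0.05). The number lower was 1 with exon length offsets, 2 with principal transcript length offsets and 1 when the libraries with the most ciliated duct marker RNA were left out. DESeq2 called 43 higher, beside 15.8% of all genes. Length and marker-based alternatives other than exon length offsets were chosen after seeing the data. Each marker-based set also left an arm without any library at some time.

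Leaving out 1 library gave 10 to 40 higher, beside 8.59% to 15.5% of all genes. It gave 0 to 1 lower and a median of 0.07 to 0.12. In the windows, 18 of the 21 libraries could be left out (the single germ-free ones of ZT02, ZT14 and ZT18 could not). There it gave 4 to 45 higher at night, 0 to 3 at dusk and 0 in the morning. The medians were 0.17 to 0.26, 0.02 to 0.10 and 0.02 to 0.08 in that order. The shares of all genes higher were 2.86% to 12.1%, 0.236% to 6.40% and 0.0165% to 1.27%. At night 12 were higher with exon length offsets and 1 from ZT22 alone, beside 8.62% and 2.28% of all genes. With DESeq2-type size factors, TMM computed without the members or no filter, 1 member was rhythmic in the germ-free arm, among 875, 912 and 657 genes. With a library left out 1 to 3 were, among 385 to 1110 genes. DESeq2 called 11, among 2020 genes, and 1 in the conventional arm, among 781. No rhythm difference was called in a member in any setting fitted, and no interaction with DESeq2-type size factors, a replicate block, exon length offsets or any of those 18 libraries left out. The cause of these changes was not tested beyond the smaller number of libraries or larger number of genes that a setting itself brings.

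With the replicate number as a block, 31 members were higher over the day, beside 14.4% of all genes, and 30 at night, beside 7.73%. With it 1 member was rhythmic in the germ-free arm, among 705 genes. Deviations of same-numbered libraries correlated at 0.556, 0.219 and -0.183 at ZT06, ZT10 and ZT22. These mixed values cannot tell whether a number marks a shared batch.

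Low counts limited Rpl3l, Rpl10l, Rpl39l and Rps12l1, which were not tested. The 1 germ-free library at ZT02, ZT14 and ZT18 limits every statement on single times.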
